A study of Homo sapiens with 8 samples.

Results

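Genes of the heat-shock, DNAJ and chaperonin chaperones were compared between wild-type (WT) and XRN1-null HEK293T cells. They were taken by name from the deposited read-count table: names starting with HSPA, HSPB, HSPD, HSPE, HSPH, HSP90, DNAJA, DNAJB, DNAJC, BAG plus a digit or PFDN, and the CCT subunits including TCP1, without hyphenated names. The rule took 74 of the 10105 genes, and it used no measured value. Through their names it also took HSPBP1 and HSPBAP1, and HSPB11, which is now known as the intraflagellar transport protein IFT25. HSPA1A, the near-identical copy of HSPA1B, was not analysed here.

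HEK293T is a human embryonic kidney cell line that carries the SV40 large T antigen. XRN1 is the main cytoplasmic 5′-to-3′ exoribonuclease, and the XRN1-null cells are 1 line made by CRISPR/Cas9 editing with a frameshift in exon 6, so the effect of the lost nuclease cannot be told apart from that of the clone. No treatment is given for either line. mRNA (RNA-Seq, made with the TruSeq RNA kit from extracted total RNA) and ribosome-protected fragments (RPF, by Ribo-Seq) were sequenced from 2 biological replicates of each genotype, which gives 8 libraries.

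Chaperones bind unfolded proteins and help them to reach their native form. HSP70 proteins cycle between ATP and ADP states. J proteins (DNAJA, DNAJB and DNAJC) stimulate their ATPase, and BAG and HSPH proteins exchange the nucleotide. HSP90 acts later on partly folded clients. Prefoldin hands actin and tubulin chains to CCT, a ring of 8 different subunits, while HSPD1 with its lid HSPE1 forms the ring of mitochondria. Many of the cytosolic genes are induced by heat-shock factor HSF1, and those of the endoplasmic reticulum (ER) by the unfolded protein response. In dividing cells the members are expressed without stress as well.

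Totals ranged from 33757487 to 38145433 counts in RNA-Seq and from 1921641 to 4399542 in Ribo-Seq, and the members held 1.75 to 2.02% and 2.78 to 3.73% of them. All 74 members had at least 10 counts in every library, as did 9768 genes of the table. XRN1 itself had 33.5 and 33.0 CPM (counts scaled to the TMM-adjusted library total, as parts per 1e6) in the WT and 282 and 253 CPM in the XRN1-null RNA-Seq libraries. Its RPF were at 34.4 and 49.8 CPM in WT and at 22.6 and 18.4 CPM in XRN1-null cells, with log2 changes of 3.01 in mRNA (FDR = 2e-06) and −1.08 in RPF (FDR = 0.00641). In both assays the XRN1 values of the genotypes did not overlap. In the XRN1-null cells the study found the intron before the edited exon kept in every XRN1 transcript it could detect. It describes a build-up of XRN1 mRNA decay intermediates that cannot be translated. Of 10 markers of HEK293T cells 9 were listed, with PAX2 absent, and their summed RNA-Seq CPM was 1256 to 1605 in WT and 1334 to 1373 in XRN1-null libraries. Of 9 markers of blood, fibroblasts, hepatocytes and endothelium only COL1A1 was listed, at 13.9 to 15.4 CPM in WT and 36.8 to 37.3 CPM in XRN1-null libraries, and its part in the results was not tested.

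Upstream sequences of HSPA1B, HSPA5 and HSP90B1 are shown first, as examples of the letters that were searched for as heat-shock and ER stress elements. They come from RefSeq on GRCh38.p14, which held a promoter for 67 members, and the 250 bases before the start were searched on both strands. A heat-shock element was taken as units of GAA and its reverse complement TTC in alternating orientation, each 2 bases from the next. The ER stress element was taken as CCAAT, any 9 bases and CCACG. The first sequence is of HSPA1B (chr6:31827618-31827655, plus strand), the second of HSPA5 (chr9:125241376-125241424, minus strand) and the third of HSP90B1 (chr12:103930201-103930354, plus strand), each 5′ to 3′ on the strand of the gene with the matches in capitals.
HSPA1B: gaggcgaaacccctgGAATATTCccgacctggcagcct
HSPA5: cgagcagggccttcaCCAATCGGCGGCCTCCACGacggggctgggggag
HSP90B1: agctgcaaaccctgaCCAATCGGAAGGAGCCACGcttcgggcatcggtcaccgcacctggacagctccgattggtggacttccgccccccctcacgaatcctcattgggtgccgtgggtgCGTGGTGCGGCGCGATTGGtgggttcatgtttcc

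The HSPA1B match holds only 2 units and lies 105 bases before the start. Matches of 2 units were found in 8 member promoters (BAG2, DNAJA1, DNAJB6, HSPA1B, HSPA8, HSPB1, PFDN6 and TCP1), which is 11.9%, a share close to the 11.7% of all 27305 promoters. Matches of 3 units, which contain one of 2 units, were found in DNAJB6 and HSPA8, or 2.99% against 0.439%. The ER stress element was found in HSPA5, 66 bases before the start, and at 2 places in HSP90B1, or 2.99% of member promoters against 0.0806% of all. The CCAAT box alone was in 24 member promoters, or 35.8% against 33%. These are matches of letters in a fixed window and not binding sites.

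The WT libraries differed from each other in the heat-inducible members, which is described before the genotypes are compared. The list of 14 holds HSPA1B, HSPA4, HSPA4L, HSPA8, HSPB1, HSPD1, HSPE1, HSPH1, HSP90AA1, HSP90AB1, DNAJA1, DNAJB1, DNAJB4 and BAG3. Not all of them are mainly stress genes, and HSPA8 and HSP90AB1 are also abundant without stress. For these 14 cytosolic and mitochondrial members the log2 ratio of replicate 2 to replicate 1 had a median of 0.36 in WT RNA-Seq. It was above 0 in 12 of the 14. It exceeded 0.25 in 9 of the 14, and in 9.0% of all genes. In WT Ribo-Seq the median was 0.39, and 10 of the 14 exceeded 0.25, against 23.7% of all genes. The XRN1-null replicates differed by a median of 0.05 in RNA-Seq and 0.11 in Ribo-Seq, and none of the 14 exceeded 0.25 in either, against 0.94% and 12.1% of all genes. HSP90AB1, a cytosolic HSP90, shows the pattern. Its mRNA was at 1134 and 1645 CPM in the WT and at 1317 and 1396 CPM in the XRN1-null libraries, and its RPF were at 1898 and 2989 CPM and at 2737 and 3015 CPM. In both assays WT replicate 1 was the lowest of the 4 libraries, and in mRNA WT replicate 2 was the highest. HSPA9, the mitochondrial HSP70, was not on the list, and its WT mRNA values were likewise the lowest and the highest, with mRNA at 320 and 450 CPM in WT and 400 and 415 CPM in XRN1-null libraries. What set the WT replicates apart was not tested.

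**Figure D1:**
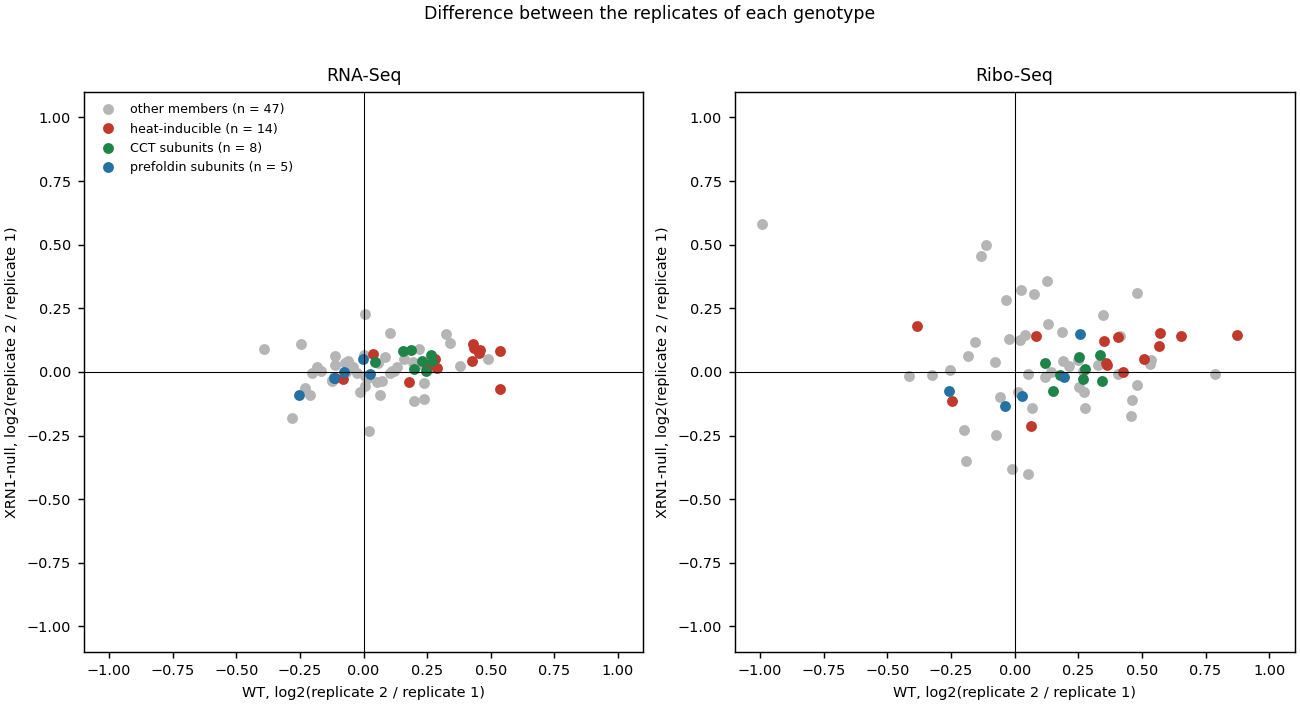
Log2 ratio of replicate 2 to replicate 1 in WT (horizontal) and XRN1-null cells (vertical) for the 74 members, with RNA-Seq on the left and Ribo-Seq on the right. The 14 heat-inducible members (red) lie to the right of 0 in RNA-Seq for 12 of 14 and near 0 on the vertical axis, with medians of 0.36 and 0.05.

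Before any comparison of genotypes, the members spanned a wide range of levels. Levels between genes are given as CPM per kb of the deposited gene width, as mean ± SD of 2 libraries. In WT cells the median member was at 37.2 CPM per kb of mRNA. The highest were HSPA8, the constitutive cytosolic HSP70, at 604 ± 73.5 CPM per kb, HSP90AA1 at 543 ± 113 and HSP90AB1 at 480 ± 125, and these neighbours did not differ beyond their spread. The lowest were HSPA2, an HSP70 best known from the testis, at 0.80 ± 0.16, DNAJC22, a membrane J protein, at 1.63 ± 0.11, and DNAJB5 at 3.79 ± 0.38.

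The ratio of RPF CPM to mRNA CPM, in which gene width cancels, also varied. Its WT median over the members was 1.13, against 0.82 over all genes. HSPA2 had the highest ratio of the members, at 11.8, and ranked 56 among 9768 genes. HSPA1B, a stress-inducible cytosolic HSP70, followed at 6.81 and rank 88, and DNAJC22 at 2.63. The lowest ratios were 0.25 for BAG1, 0.27 for DNAJC5 and 0.29 for DNAJC4. RPF come from coding sequence and mRNA reads from the whole transcript, so the ratio also depends on the coding share of a gene. HSPA2 and HSPA1B have near copies among the HSP70 genes, between which counting could divide reads, and HSPA2 had only 67 and 83 RNA-Seq counts in WT cells, so both ratios are uncertain.

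**Figure D2:**
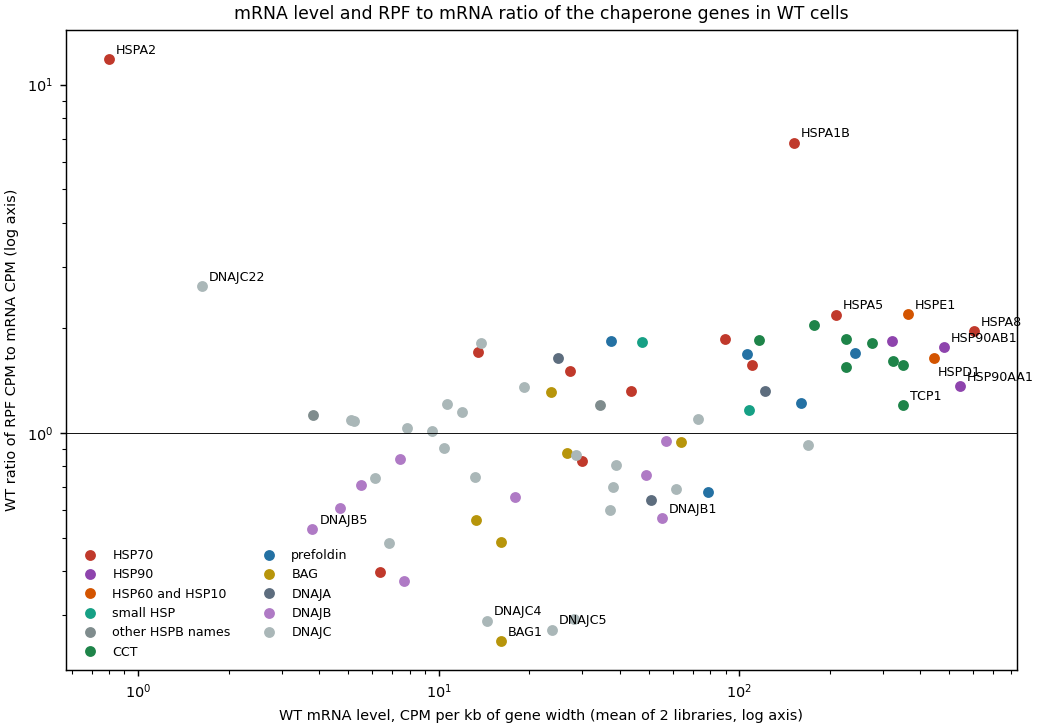
WT mRNA level in CPM per kb (horizontal, log axis, mean of 2 libraries) and WT ratio of RPF CPM to mRNA CPM (vertical, log axis) for the 74 members, coloured by family. HSPA2 stands at the upper left with 0.80 CPM per kb and a ratio of 11.8, HSPA1B has a ratio of 6.81, and HSPA8 is the most abundant at 604 CPM per kb.

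The first comparison asked which members changed in mRNA abundance when XRN1 was lost. A gene was called at an FDR (Benjamini-Hochberg adjusted p over the 10105 genes) below 0.005 in edgeR's quasi-likelihood test. Of the 74 members 11 were called higher (14.9%) and 16 lower (21.6%), against 22.9% and 23.2% of all genes, so neither share stood above the background. In bulk libraries fewer cells with an mRNA and less of it per cell cannot be told apart. All 27 called members were also called, in the same direction, with other scaling factors, other tests and a count filter, with adjusted p up to 0.00434 in DNAJC10. With 1 library left out the share of all genes called ranged from 16.2 to 33.7% higher and from 10.9 to 33.5% lower, with the high ends without a WT library. The median log2 change of the members was −0.08, and that of all genes −0.01. The largest rises were those of DNAJC25, HSPA2 and DNAJC13, and the largest falls those of HSPE1, DNAJC19 and PFDN4. Deposited gene width went with the changes: Spearman's rho of log2 width with mRNA log2 change was 0.32 over the 74 members and 0.35 over all genes, a description over genes of the same 4 libraries. Of the 46 members at or under the median width of all genes (3225 bases) 5 rose and 13 fell, and of the 28 longer ones 6 rose and 3 fell. Over all genes 13.7% rose and 31.3% fell at or under that width, and 32.1% rose and 15.0% fell above it.

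**Figure D3:**
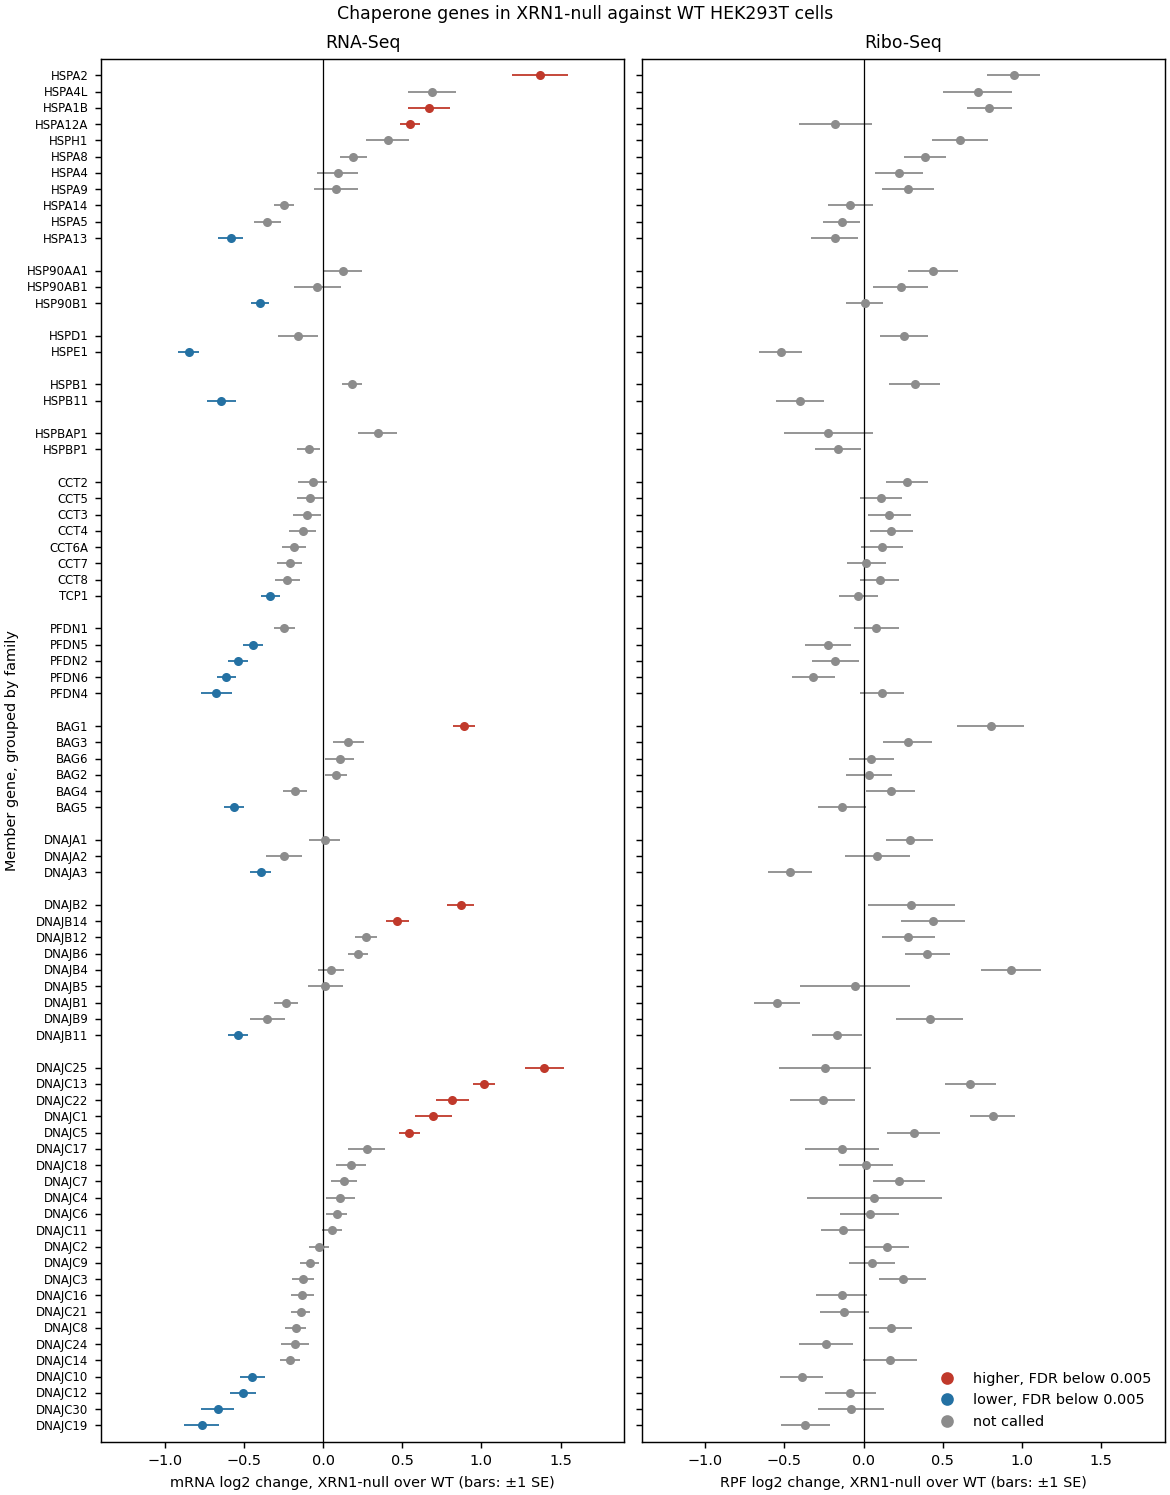
Log2 change in XRN1-null over WT cells of mRNA (left) and RPF (right) for each of the 74 members, grouped by family, with bars of 1 SE. In RNA-Seq 11 members are called higher (red) and 16 lower (blue), 4 of them prefoldin subunits, and in Ribo-Seq no member is called by the same quasi-likelihood test.

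Among the HSP70 proteins 3 of 11 members rose and 1 fell, beside 22.9% and 23.2% of all genes. Without WT replicate 2 the counts were 8 and 3, and without WT replicate 1 they were 5 and 3. HSPA2 mRNA was at 1.89 and 2.53 CPM in the WT and at 5.45 and 5.93 CPM in the XRN1-null libraries. The groups did not overlap, and the log2 change was 1.37 ± 0.18 (SE; FDR = 3.8e-04). The study kept genes above an FPKM of 2, in which libraries is not given, and by CPM per kb of mRNA HSPA2 (0.80 in WT and 2.05 in XRN1-null libraries) was above 2 only where it was high. In RPF it was at 9.44 and 18.9 CPM per kb. The same held for the mRNA of DNAJC22 (1.63 and 2.87 CPM per kb) and for 189 genes in all, of which 157 were called higher. If the minimum was applied to mRNA these genes had to be higher in XRN1-null libraries to be listed, so the rises of HSPA2 and DNAJC22 are not independent of it. Of the other 72 members, above 2 in both genotypes, 9 were called higher, beside 22% of the 9761 genes of that class. HSPA1B mRNA was at 323 and 442 CPM in WT and at 594 and 625 CPM in XRN1-null cells. Again both XRN1-null libraries were above both WT libraries, but WT replicate 1 was well below replicate 2. Its log2 change was 0.67 ± 0.13 (FDR = 0.00299), and the call was lost without XRN1-null replicate 2, with an adjusted p of 0.00763. The gene lies at chr6:31795515-31798031 on hg19, and an exon of another annotated gene overlaps it on the same strand.

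HSPA12A, a distant relative of HSP70, rose by 0.55 ± 0.06 (FDR = 2.4e-04). HSPA13, an HSP70 relative associated with the ER, was at 116 and 102 CPM in WT and at 72.1 and 73.2 CPM in XRN1-null libraries, a change of −0.58 ± 0.08 (FDR = 4.3e-04). HSPA8, the most abundant member, did not pass the threshold. Its mRNA was at 1358 and 1614 CPM in WT and at 1687 and 1706 CPM in XRN1-null cells, with an FDR of 0.0795, and HSPH1, an exchange factor of HSP70, had a log2 change of 0.41 ± 0.14 and an FDR of 0.0283. Its change was 0.22 without WT replicate 1 and 0.65 without WT replicate 2. DESeq2 and a fit with the replicate number as a block called it higher. The adjusted p ran from 5.5e-04 to 0.0281 over the other settings with all libraries. HSPA4L, another exchange factor, lay just outside the threshold with 0.69 ± 0.15 and an FDR of 0.00505. It was called with RLE factors, library totals, the likelihood ratio test, the replicate number as a block and DESeq2. Its change was 0.46 without WT replicate 1 and 0.98 without WT replicate 2.

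Prefoldin was the family with the largest share of called members when all libraries were used. Of its 5 measured subunits PFDN2, PFDN4, PFDN5 and PFDN6 fell, beside 23.2% of all genes and 31.3% of those at or under the median width, and the family median was −0.54. With 1 library left out 3 to 5 subunits were called lower. PFDN4 mRNA was at 54.6 and 45.8 CPM in WT and at 32.5 and 30.5 CPM in XRN1-null libraries. PFDN6 was at 78.1 and 77.9 CPM in WT and at 50.2 and 52.0 CPM in XRN1-null libraries. For both subunits the groups were well apart, with log2 changes of −0.67 ± 0.10 (FDR = 6.0e-04) and −0.61 ± 0.06 (FDR = 1.2e-04). PFDN2 fell by 0.54 ± 0.06 (FDR = 2.0e-04) and PFDN5 by 0.44 ± 0.06 (FDR = 6.1e-04), while PFDN1 had a log2 change of −0.24 ± 0.07 and an FDR of 0.0137. All 5 subunits were lower in each same-numbered pair of libraries, with medians of −0.52 for replicate 1 and −0.55 for replicate 2. VBP1, the remaining prefoldin subunit, does not carry a PFDN name and was not a member. It had a log2 change of −0.66 ± 0.08 and was called lower. Without either XRN1-null library PFDN5 was not called (adjusted p of 0.0143 and 0.0138). The prefoldin genes are short, with a median width of 733 bases. Exons of RGL2 overlap those of PFDN6 on the other strand, and the library kit is not described as stranded, so reads of the pair cannot be told apart.

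CCT, the ring that receives chains from prefoldin, changed less. With all libraries TCP1 was the only called subunit of 8, beside 23.2% of all genes called lower, with mRNA at 847 and 873 CPM in WT and at 674 and 692 CPM in XRN1-null libraries. The log2 change was −0.33 ± 0.06 (FDR = 0.00177), and without either XRN1-null library it was not called (adjusted p of 0.0769 and 0.0502). The count of called subunits rested on the WT libraries: all 8 were called lower without WT replicate 1, beside 30.8% of all genes, and TCP1 and CCT8 without WT replicate 2, beside 33.5%. Exons of TCP1 overlap those of SNORA20 and SNORA29 on the same strand and of ACAT2 on the other. For the other 7 subunits the log2 changes ran from −0.23 for CCT8 to −0.07 for CCT2. CCT3 mRNA was at 757 and 913 CPM in WT and at 767 and 790 CPM in XRN1-null libraries, and the groups overlapped. The sign depended on the WT library used: without WT replicate 2 the log2 change was 0.07 for CCT2, 0.04 for CCT3 and 0.05 for CCT5. Among 14 other genes that work with the chaperonins, 2 were called higher and 7 lower, beside 22.9% and 23.2% of all genes. Without an XRN1-null library 3 or 4 of the 14 were called lower. TBCA, which binds β-tubulin after CCT, had a log2 change of −0.76, and PDRG1, a prefoldin-like protein, one of 0.65.

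Mitochondrial members were called in 1 direction: 4 of 8 measured fell and none rose, beside 23.2% and 22.9% of all genes. With 1 library left out 2 to 5 were called lower, and without WT replicate 2 HSPA9 was called higher. HSPE1, the lid of the mitochondrial chaperonin, had the largest fall of all members. Its mRNA was at 360 and 333 CPM in WT and at 194 and 191 CPM in XRN1-null libraries, with a log2 change of −0.85 ± 0.07 (FDR = 4.3e-05). Its partner HSPD1, which forms the ring, was at 920 and 1245 CPM in WT and at 938 and 1002 CPM in XRN1-null libraries. The HSPD1 groups overlapped, and the log2 change was −0.16 ± 0.13 with an FDR of 0.307. The ratio of HSPE1 to HSPD1 mRNA was 0.39 and 0.27 in WT and 0.21 and 0.19 in XRN1-null libraries. In RPF the ratio was 0.56 and 0.33 in WT and 0.26 and 0.24 in XRN1-null libraries. Both XRN1-null values were below both WT values in each assay, and the exact permutation test gave a two-sided p of 0.333, the smallest that 2 against 2 libraries allow.

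HSPD1 and HSPE1 are transcribed away from each other, and their starts are separated by 104 bases on chromosome 2 (chr2:197500275-197500378 on GRCh38.p14). The stretch is shown because both genes start from its ends, and it is written on the plus strand, the strand of HSPE1. It held no match of 2 heat-shock units.
HSPE1 and HSPD1: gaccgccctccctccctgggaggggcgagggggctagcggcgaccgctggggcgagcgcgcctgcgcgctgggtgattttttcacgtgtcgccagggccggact
Annotated exons of the pair overlap on opposite strands, and HSPE1 also shares exons with the readthrough gene HSPE1-MOB4.

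The other called mitochondrial members were J proteins. DNAJC19, a part of the import motor of the inner membrane, was at 51.3 and 42.2 CPM in WT and at 29.3 and 25.8 CPM in XRN1-null libraries (log2 change −0.77 ± 0.11, FDR = 6.3e-04). Exons of SOX2-OT overlap those of DNAJC19 on the other strand. DNAJC30 fell by 0.67 ± 0.10 (FDR = 9.0e-04) and DNAJA3 by 0.39 ± 0.07 (FDR = 0.00151). The groups did not overlap for any of them. Without XRN1-null replicate 1 the calls of DNAJC30 and DNAJA3 were lost (adjusted p of 0.00707 and 0.0258), and that of DNAJA3 also without replicate 2 (0.0243). Among 8 other mitochondrial folding and protease genes 2 rose, namely the protease LONP1 (0.81) and CLPX (0.66), and 1 fell, the mitochondrial HSP90 TRAP1 (−0.60; not called without XRN1-null replicate 1), beside 22.9% and 23.2% of all genes.

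The ER list used here is not complete. It leaves out the ER membrane J proteins DNAJB12 (log2 change 0.27, not called) and DNAJB14 (0.47, called higher). Of its 10 members 4 fell and 2 rose, beside 23.2% and 22.9% of all genes. With 1 library left out 2 to 6 were called lower. HSP90B1, the ER form of HSP90, was at 934 and 906 CPM in WT and at 694 and 703 CPM in XRN1-null libraries. The libraries of each genotype were within a narrow range, and the log2 change was −0.40 ± 0.06 (FDR = 7.1e-04). HSPA5 (BiP), the HSP70 of the ER, was at 770 and 896 CPM in WT and at 632 and 674 CPM in XRN1-null libraries. Its groups did not overlap either, but it was not called (−0.35 ± 0.08, FDR = 0.00734). The likelihood ratio test (adjusted p = 0.00142) and DESeq2 (adjusted p = 7.3e-04) called it lower, as did a fit with the replicate number as a block. Without 1 library the change of HSPA5 ranged from −0.44 to −0.24. The J proteins DNAJB11 and DNAJC10, which work with HSPA5, fell by 0.54 ± 0.06 (FDR = 2.6e-04) and 0.45 ± 0.08 (FDR = 0.00182). HSP90B1 and DNAJC10 were not called without either XRN1-null library, with adjusted p from 0.0197 to 0.0347.

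The 2 members of the ER list that rose are membrane J proteins. DNAJC25 mRNA was at 19.5 and 14.7 CPM in WT and at 43.6 and 46.5 CPM in XRN1-null libraries, the largest log2 change of all members (1.40 ± 0.12, FDR = 7.0e-05). The gene (chr9:114393614-114416631 on hg19) shares exons with the readthrough gene DNAJC25-GNG10, and reads of the pair cannot be divided here. DNAJC1 was at 34.8 and 45.3 CPM in WT and at 64.3 and 65.4 CPM in XRN1-null libraries (0.70 ± 0.11, FDR = 0.00123). Of 17 other ER folding and stress genes 9 were called lower and 1 higher, beside 23.2% and 22.9% of all genes, and 4 or 5 were lower without an XRN1-null library. Calreticulin (CALR) had a log2 change of −0.51, PDIA4 one of −0.65 and HERPUD1 one of −0.96, while the stress transcription factor DDIT3 had one of 0.57.

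Among the remaining J and BAG proteins calls went both ways. DNAJC13, an endosomal J protein, was at 70.1 and 73.3 CPM in WT and at 149 and 140 CPM in XRN1-null libraries (1.02 ± 0.07, FDR = 2.2e-05). BAG1, an exchange factor of HSP70, was at 64.8 and 59.8 CPM in WT and at 116 and 115 CPM in XRN1-null libraries (0.89 ± 0.07, FDR = 3.6e-05). Both rose in every pair of libraries with little spread. DNAJB2 (0.87 ± 0.09), DNAJC22 (0.82 ± 0.10), DNAJC5, the cysteine string protein (0.54 ± 0.07), and DNAJB14 (0.47 ± 0.07) rose as well.

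BAG5, which unlike BAG1 carries several BAG domains, was at 84.2 and 85.2 CPM in WT and at 57.9 and 56.9 CPM in XRN1-null libraries. The fall was of 0.56 ± 0.06 (FDR = 1.7e-04), with exons of KLC1 on the other strand. HSPB11 fell by 0.64 ± 0.09 (FDR = 5.3e-04) and DNAJC12 by 0.51 ± 0.08 (FDR = 0.00109). DNAJB14 and DNAJC12 were not called without either XRN1-null library, with adjusted p from 0.00653 to 0.0117. The stress-inducible BAG3 and HSPB1, and the large BAG6, did not pass, with log2 changes of 0.16, 0.18 and 0.11.

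In mRNA 10 of the 14 heat-inducible members had log2 changes above 0, with a median of 0.11. HSPA1B rose and HSPE1 fell, and no other was called, beside 22.9% of all genes higher and 23.2% lower. Without WT replicate 2 there were 10 called higher and 1 lower, beside 33.7% and 33.5% of all genes, and without WT replicate 1 there were 4 in each direction, beside 31.6% and 30.8%. In the same-numbered pair of replicate 1 the median was 0.24, with 12 of 14 above 0, and in that of replicate 2 it was −0.01, with 7 of 14 above 0. Without WT replicate 1 the fitted median was −0.01, and without WT replicate 2 it was 0.28. The sign for HSPA4, HSP90AA1, HSP90AB1, HSPD1 and DNAJA1 likewise changed with the library left out. HSP90AA1, the inducible cytosolic HSP90, had a log2 change of 0.12 ± 0.12 and ranged from −0.05 to 0.35, and HSP90AB1 had −0.03 ± 0.15 and ranged from −0.26 to 0.26. In RPF and TE most log2 changes of the 14 were above 0. With TMM factors and no block, edgeR's quasi-likelihood test called none of the 14 in RPF or TE at an FDR below 0.005. In RPF HSPA1B was called higher by DESeq2, with RLE factors and with library totals. The likelihood ratio test called HSPA1B and DNAJB4 higher and DNAJB1 lower in RPF. With the replicate number as a block HSPA1B, HSPA4L, HSPH1 and DNAJB4 were called higher in RPF, and HSPE1 and DNAJB1 lower. In TE DNAJB4 was called higher by DESeq2 and the likelihood ratio test, and HSPD1 in a fit blocked by genotype and number. The RPF median was 0.31 with 12 of 14 above 0, and the TE median 0.20 with 13 of 14 above 0, against 0.00 and 0.01 over all genes. The 2 same-numbered pairs of Ribo-Seq libraries had medians of 0.51 and 0.19, each with 12 of 14 above 0. The size depended on the WT libraries: without WT Ribo-Seq replicate 1 the medians were 0.16 in RPF and 0.011 in TE, and without WT Ribo-Seq replicate 2 they were 0.57 and 0.44. Of the heat-shock factors, HSF2 was called higher (0.38; not without either XRN1-null library), HSBP1, a negative regulator of HSF1, lower (−1.16), and HSF1 was not called (−0.14). Of 16 cochaperones of HSP90 2 were called higher and 2 lower, beside 22.9% and 23.2% of all genes, with 1 to 5 higher and 0 to 6 lower when 1 library was left out.

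**Figure D4:**
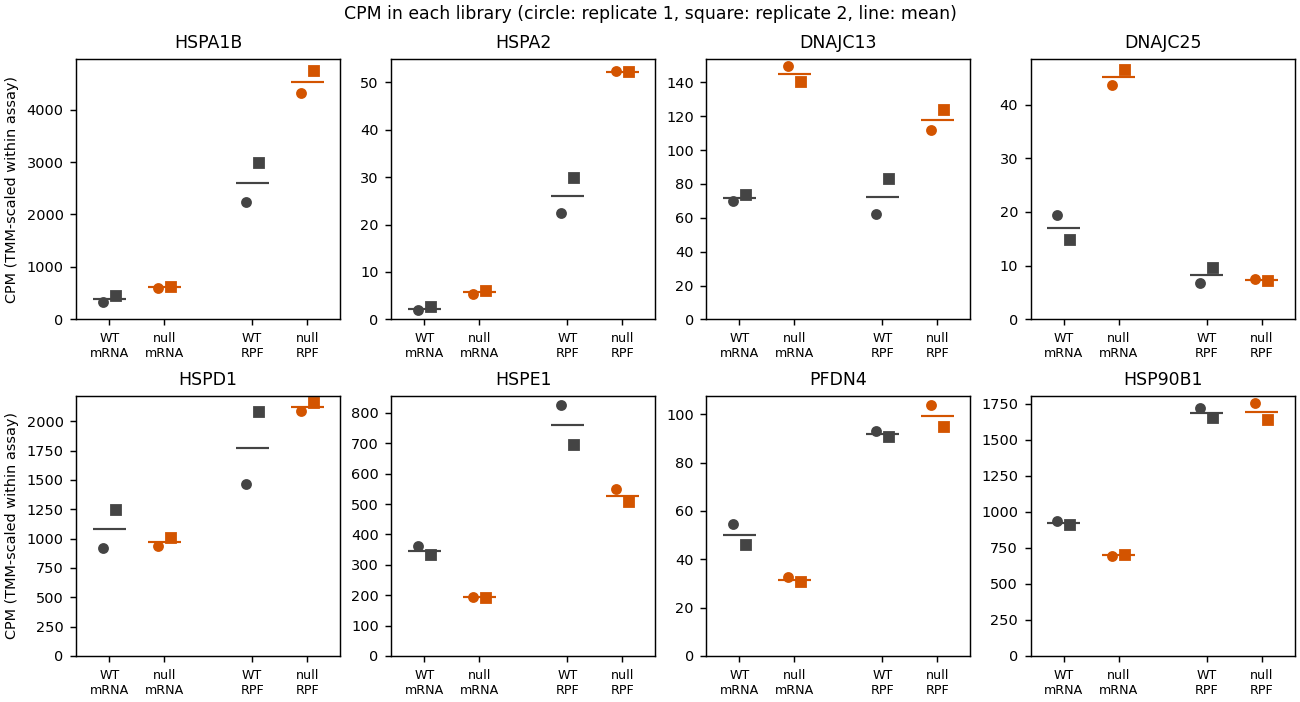
CPM of mRNA and RPF in each of the 8 libraries for 8 members, as circles (replicate 1) and squares (replicate 2) with a line at the mean, WT in grey and XRN1-null in orange. HSPE1 and PFDN4 mRNA are lower in both XRN1-null libraries, DNAJC25 mRNA is higher with RPF at the WT level, and WT replicate 1 of HSPA1B and HSPD1 is below replicate 2.

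The second comparison asked which members changed in RPF. No member was called in either direction at an FDR below 0.005 with edgeR's quasi-likelihood test, against 0.633% of all genes called higher and 1.14% lower. This fit had TMM factors and no block. With RLE factors, with library totals or with the replicate number as a block the same test called members, as given under the processing. At an unadjusted p below 0.05 there were 11 members higher (14.9%, against 16.2% of all genes) and 7 lower (9.46%, against 16.8%). DESeq2 called 2 higher (2.86%, against 1.05%) and none lower (against 1.29%) at its FDR of 0.005, as shares of genes with an adjusted p. The likelihood ratio test of edgeR called 6 higher (8.11%, against 4.64%) and 1 lower (1.35%, against 5.9%). At an FDR below 0.05 the test called 8 members higher (10.8%, against 7.07% of all genes) and 3 lower (4.05%, against 8.38%). The median RPF log2 change of the members was 0.08, and it was 0.00 over all genes. It ranged from 0.014 without WT replicate 1 to 0.20 without WT replicate 2. A count of 12 to 21 RPF for the lowest member in each library limits what can be seen for the rare ones.

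The higher group holds 4 genes of HSP70 and HSPH-type proteins. HSPA1B RPF were at 2241 and 2973 CPM in WT and at 4307 and 4742 CPM in XRN1-null libraries, with a log2 change of 0.79 ± 0.14 (FDR = 0.00523). HSPA2 RPF were at 22.4 and 29.9 CPM in WT and at 52.4 and 52.1 CPM in XRN1-null libraries (0.95 ± 0.17, FDR = 0.00566). In both genes all XRN1-null libraries were above all WT libraries and WT replicate 1 was the lowest. HSPA4L (0.72 ± 0.22, FDR = 0.0442) and HSPH1 (0.61 ± 0.17, FDR = 0.0378) had the same order of libraries, and without WT replicate 1 their values were 0.39 and 0.36. DESeq2 gave HSPA4L an adjusted p of 0.3, while the other settings with all libraries gave 3.1e-05 to 0.0468.

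The other higher members were DNAJC1 (0.81 ± 0.14, FDR = 0.00526), DNAJB4 (0.93 ± 0.19, FDR = 0.01), BAG1 (0.80 ± 0.21, FDR = 0.0261) and DNAJC13 (0.67 ± 0.16, FDR = 0.0175). DNAJC13 RPF were at 62.0 and 82.7 CPM in WT and at 112 and 124 CPM in XRN1-null libraries.

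Lower RPF were found for HSPE1, DNAJA3 and DNAJB1. HSPE1 was at 825 and 696 CPM in WT libraries and at 548 and 507 CPM in XRN1-null libraries (−0.53 ± 0.14, FDR = 0.0243), so its RPF moved in the direction of its mRNA. DNAJB1, the main cytosolic J partner of HSP70, was at 88.6 and 92.6 CPM in WT and at 66.5 and 57.4 CPM in XRN1-null libraries (−0.55 ± 0.14, FDR = 0.0258). Its mRNA was at 149 and 169 CPM and at 137 and 133 CPM. DNAJA3 had −0.47 ± 0.14 (FDR = 0.0406). Without an XRN1-null library the adjusted p of these 3 genes lay between 0.13 and 0.359. HSPD1 RPF were at 1466 and 2083 CPM in WT and at 2085 and 2157 CPM in XRN1-null libraries, with WT replicate 1 alone at the lower level. HSP90B1 RPF, at 1723 and 1653 CPM in WT and at 1754 and 1638 CPM in XRN1-null libraries, overlapped although its mRNA fell.

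Over the 74 members the mRNA and RPF log2 changes had a Spearman's rho of 0.58, and over all genes of 0.69. This describes genes measured in the same 8 libraries and is given without a test.

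**Figure D5:**
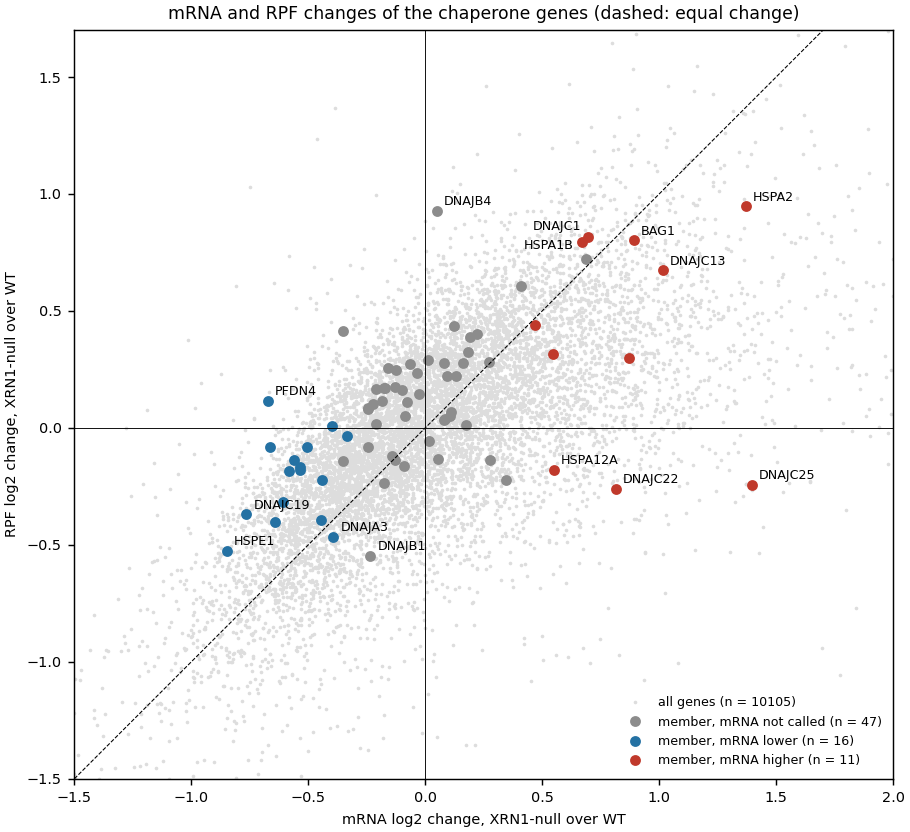
Log2 change of mRNA (horizontal) and of RPF (vertical) in XRN1-null over WT cells for all 10105 genes (light grey) and the 74 members, coloured by their mRNA call, with genes beyond the axis limits not drawn. HSPA2, HSPA1B, BAG1, DNAJC1 and DNAJC13 lie at the upper right, DNAJC25, DNAJC22 and HSPA12A rose in mRNA with RPF changes below 0, and PFDN4 fell in mRNA with an RPF change of 0.12.

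The third comparison asked whether RPF changed relative to mRNA, as translation efficiency (TE), by the interaction of assay and genotype over the 8 libraries. At an FDR below 0.005 edgeR's quasi-likelihood test called no member, against 0.0495% of all genes higher and 1.78% lower. This fit had no block, and fits with a block called members, as given under the processing. An unadjusted p below 0.05 was reached by 18 members with higher TE (24.3%, against 8.76% of all genes) and 3 with lower TE (4.05%, against 14.6%). DESeq2 called 3 higher (4.05%, against 0.564%) and 2 lower (2.7%, against 4.87%), and the likelihood ratio test 2 higher (2.7%, against 0.703%) and 2 lower (2.7%, against 5.9%). At an FDR below 0.05 DNAJB4 and PFDN4 were higher (2.7% of members, against 1.02% of all genes) and DNAJC22 and DNAJC25 lower (2.7%, against 6.46%). The median TE log2 change was 0.18 over the members, with 50 of 74 above 0, and 0.01 over all genes. It was 0.070 without WT Ribo-Seq replicate 1 and 0.32 without WT Ribo-Seq replicate 2. TE uses the same RNA-Seq libraries as the mRNA comparison, so an error in these libraries moves mRNA and TE changes in opposite directions. Its part in the counts was not tested.

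DNAJB4 and PFDN4 reached the looser threshold in different ways. DNAJB4, a cytosolic J partner of HSP70, had mRNA at 21.1 and 19.9 CPM in WT and at 21.5 and 21.1 CPM in XRN1-null libraries. Its RPF were at 14.1 and 14.9 CPM in WT and at 26.6 and 29.3 CPM in XRN1-null libraries, from 27 to 107 counts. Exons of GIPC2 overlap those of DNAJB4 on the same strand. The mRNA libraries overlapped in level while the RPF groups were apart, and the TE log2 change was 0.88 ± 0.19 (FDR = 0.0147). In PFDN4 the mRNA fell as given above, and the RPF were at 93.2 and 90.7 CPM in WT and at 104 and 94.9 CPM in XRN1-null libraries. The TE log2 change was 0.79 ± 0.15 (FDR = 0.00796).

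DNAJC25 and DNAJC22 had more mRNA without more RPF, where the rise in DNAJC22 mRNA is subject to the FPKM minimum as given above. DNAJC25 RPF were at 6.77 and 9.65 CPM in WT and at 7.45 and 7.18 CPM in XRN1-null libraries, from 13 to 42 counts. The RPF groups overlapped, and the TE log2 change was −1.65 ± 0.36 (FDR = 0.0174). DNAJC22 mRNA was at 7.51 and 6.85 CPM in WT and at 12.8 and 12.5 CPM in XRN1-null libraries, and its RPF were at 18.8 and 19.1 CPM and at 14.2 and 17.8 CPM. The TE log2 change was −1.08 ± 0.22 (FDR = 0.0119). For these 4 genes the adjusted p ranged from 4.1e-05 to 0.0218 over the other settings with all libraries.

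None of the CCT subunits was called in TE, and their 8 log2 changes lay close together between 0.19 and 0.34. They depended on the WT libraries: with 1 library left out CCT4 ranged from 0.15 to 0.50, CCT3 from 0.11 to 0.45, CCT5 from 0.062 to 0.34 and TCP1 from 0.23 to 0.39, and none of the 8 was called. The lowest values came without WT Ribo-Seq replicate 1 or WT RNA-Seq replicate 2 and the highest without WT Ribo-Seq replicate 2. The ratio of RPF to mRNA of CCT2 was 2.05 and 2.04 in WT and 2.59 and 2.58 in XRN1-null libraries when libraries of the same number are divided. That of TCP1, which had the lowest WT ratio of the 8, was 1.15 and 1.24 in WT and 1.54 and 1.42 in XRN1-null libraries. The 5 prefoldin subunits also had TE log2 changes above 0, with a median of 0.32. Over all genes 5151 of 10105 were above 0.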

How the data were processed

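RNA-Seq and Ribo-Seq counts came from 2 WT and 2 XRN1-null libraries per assay, grouped by their labels. According to the methods of the study, reads of ribosomal RNA were taken out with Bowtie2 and the rest was aligned to hg19 with TopHat2, and footprints were limited to selected lengths. The authors deposited unnormalized gene counts from QuasR for genes above an FPKM minimum. The authors also deposited a width per gene, whose making is not given in the sources used here, and fold changes, p-values and TE ratios of their own comparisons, which were not used.

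Each assay was fitted with edgeR 4.0.16 in R 4.3.3 (TMM within the assay, genotype as the only term, quasi-likelihood test). TE was the interaction of assay and genotype over all 8 libraries. P-values were adjusted by Benjamini-Hochberg over 10105 genes and called at an FDR below 0.005, and also below 0.05. SE is the log2 change divided by the square root of F. Log2 ratios between libraries had 0.5 CPM added. No gene was filtered, and the functions were tested on simulated data. Alternatives were RLE factors, library totals, the likelihood ratio test, DESeq2 1.42.0, a minimum of 10 counts, blocks and each library left out. Medians and counts of calls of gene lists under them, and of same-numbered pairs, were chosen after seeing the data.

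Members and lists were chosen with earlier results of these data known. Named genes are XRN1, the 8 members with the largest called mRNA change in each direction, fixed reference members of each family, and the 3 with the highest and lowest WT level and ratio. The other called members and those past an FDR of 0.05 were added after their values were seen. The 74 members were matched to GENCODE release 44 on GRCh37 (the coordinates of hg19), HSPB11 by its newer symbol. Of them 39 have an exon that overlaps another gene, 17 on the same strand and 32 on the other. Promoters were RefSeq's on GRCh38.p14, read with Python 3.11.15. No molecular identifiers were used as far as stated, so counts can hold PCR copies.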

Additional observations from a re-analysis of the deposited data

How the results depend on the processing

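The 11 higher and 16 lower mRNA calls became 17 and 25 at an FDR of 0.05. At that threshold 3319 of all 10105 genes were higher and 3460 lower. Leaving out each library gave 10 to 26 higher and 9 to 31 lower, with the lowest counts without an XRN1-null library and the highest without a WT library, where the spread rests on the other genotype. In RPF, where no member was called, RLE factors and library totals called 3 higher, the likelihood ratio test 6 higher and 1 lower, DESeq2 2 higher, and an FDR of 0.05 8 higher and 3 lower; leaving out libraries gave 0 to 23 higher and 0 to 6 lower. In TE, also with no call, the likelihood ratio test called 2 higher and 2 lower, DESeq2 3 and 2, and an FDR of 0.05 2 and 2. Over all genes, RLE factors called 80 higher and 124 lower in RPF, and library totals 133 and 164. The shares of all genes in RPF and TE under the likelihood ratio test, DESeq2 and the looser threshold are given above. With 1 library left out a genotype has a single library in that assay. No share of all genes is given for these RPF counts, so they are not read as a result about the members. A culture block (both assays of 1 genotype and number joined) called 3 higher (HSP90B1, HSPD1 and PFDN4) and 1 lower (DNAJC25). No share of all genes is given for the culture block. The cause of these differences was not tested.

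With the replicate number as a block (replicate block) the 27 mRNA calls stayed. DNAJB12, HSPA4L and HSPH1 were called higher in mRNA as well, and HSPA5 lower. In RPF 8 members were called higher and 2 lower, and in TE 1 higher. The share of all genes under the block is not given, so these counts are not read as a result about the members. The labels do not say what a number marks, and deviations of same-numbered libraries correlated by 0.19 in RNA-Seq, 0.08 in Ribo-Seq and 0.08 in TE over genes, with 2 pairs.

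The median log2 change of the members ran from −0.11 to 0.012 in mRNA, 0.014 to 0.20 in RPF and 0.070 to 0.32 in TE with 1 library out, and library totals gave 0.14 in TE and a WT median of 36.5 CPM per kb. Signs changed with the library left out for the mRNA of HSPA4 (−0.087 to 0.32), HSPA9 (−0.12 to 0.34), HSPD1 (−0.34 to 0.075), HSP90AA1 (−0.054 to 0.35), HSP90AB1 (−0.26 to 0.26, and 0.023 with library totals), DNAJA1 (−0.10 to 0.16), CCT2 (−0.17 to 0.071), CCT3 (−0.21 to 0.038), CCT5 (−0.18 to 0.046), DNAJB5 (−0.066 to 0.12) and DNAJC2 (−0.062 to 0.028). None of these was called with all libraries, and all but DNAJB5 and DNAJC2 were called with at least 1 library left out. Ribo-Seq depth limits the RPF and TE results of the rarest members.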

Other observations

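Of 13 partners of the HSP70 members that do not carry their names 3 were called lower in mRNA, beside 23.2% of all genes, namely STUB1, a ubiquitin ligase that binds HSP70 and HSP90 (−0.55 ± 0.06), HYOU1, an exchange factor of the ER (−0.41 ± 0.07), and GRPEL1, an exchange factor of mitochondria (−0.32 ± 0.06). GAK, a J protein of clathrin uncoating, was called higher (0.47 ± 0.07), beside 22.9% of all genes. Among the 16 HSP90 cochaperones UNC45A (1.09 ± 0.14) and PIH1D1 (0.45 ± 0.06) were called higher, and AHSA1, which activates the HSP90 ATPase (−0.40 ± 0.09), and PTGES3, the cochaperone p23 (−0.30 ± 0.06), lower. Without either XRN1-null library HYOU1, GRPEL1, GAK, AHSA1 and PTGES3 were not called, nor was PIH1D1 without XRN1-null replicate 1. None of these genes was called in RPF or TE at an FDR below 0.005. The 14 DNAJC members without an mRNA call had log2 changes from −0.21 for DNAJC14 to 0.28 for DNAJC17.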
